A study of Mus musculus with 33 samples.

Results

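Alveolar macrophages of mouse lung were studied as the lung cells that carried at least 1 unique molecular identifier (UMI, a tag that counts each captured mRNA molecule once) of at least 3 of the 5 genes Plet1, Ear1, Fabp1, Krt79 and Siglecf. Cells entered the count if they held 500 or more UMIs and 200 or more genes, with mitochondrial genes giving 15% of the UMIs or less. The rule selected 3717 of 17926 kept lung cells, in a series of 81552 kept cells. Of these 3717 cells, 3690 came from biotin-positive lung and 27 from biotin-negative lung. The rule genes encode a surface glycoprotein (Plet1), a ribonuclease of the eosinophil-associated family (Ear1), a fatty acid-binding protein (Fabp1), a keratin (Krt79) and a sialic acid-binding lectin (Siglecf), and what they show of these cells is a description, since they chose them.

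Alveolar macrophages live in the airspace of the lung, where they take up surfactant, inhaled particles and dying cells. They are settled before and soon after birth by fetal monocytes, and they depend on the cytokine GM-CSF and on TGF-beta, which act through the transcription factor PPARG and a programme of lipid uptake, storage and efflux. In mice they are known for the surface proteins CD11c (Itgax), SiglecF and MARCO, and for the chitinase-like protein Chil3.

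The samples came from mice given an intracardiac injection of tumour cells that carry an enzyme able to tag neighbouring cells with biotin, a niche labelling method named SAMENT. After substrate was given overnight, bone, brain, liver and lung were dissociated with collagenase and separated by sorting for the biotin tag, with 4 samples in each of the 8 groups. The groups used here are biotin-positive lung, biotin-negative lung, biotin-positive liver and biotin-positive brain, all from injected, substrate-treated mice. A single bone sample of another injection, named IIA, pooled positive and negative cells. No sample without labelling was analysed here. The labels give no strain, sex, age or tumour line and do not say which samples came from the same animal, so p-values measure the spread between these samples.

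The 8 lung samples held 4500782 to 24893464 UMIs. The kept cells of positive lung that the rule chose had median UMI counts of 8521, 9441, 6441 and 9018 in replicates 1 to 4, against 4866, 7997, 4215 and 3913 in the other kept cells, and their median mitochondrial share was 2.51% to 6.06% against 0.373% to 2.58%. Cell barcodes were shared by no pair of samples with the same replicate number (112 pairs) but 341 times over the 384 pairs with different numbers, at most 7 in a pair. Among the positive-lung members, 3668 of 3690 carried the sample tag of their own sample at no less than 3 times the next tag, and 20 of the 27 negative-lung members did so.

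RNA of other cell types was present in these droplets. At least 2 of 5 neutrophil markers were found in 21.3%, 57.0%, 35.9% and 39.8% of the alveolar macrophages of positive replicates 1 to 4, and in 39.8%, 55.9%, 79.3% and 66.8% of the other cells. The Kupffer cell gene Clec4f was detected in 26.2% of alveolar macrophages and in 20.8% of other lung cells of positive replicate 2, and in at most 4.15% of alveolar macrophages in the other 3 samples. With cells thinned to 2000 UMIs it was in 6.14% of alveolar macrophages and 6.996% of other cells of replicate 2, so the share among alveolar macrophages was no longer the higher one. At least 2 of 5 epithelial markers were found in 0.691% to 11.2% of alveolar macrophages, against 0.171% to 1.78% of the other cells. That list holds Epcam, found after the same thinning in 3.23% to 19.7% of alveolar macrophages and 0.377% to 1.93% of other cells of the positive samples. Sftpc and Scgb1a1 of the list were in at most 4.30% and 2.47%. Whether the Epcam RNA was the members' own was not tested. The interstitial macrophage list reached 24.4% of alveolar macrophages in positive replicate 2, against 44.5% of the other cells there, and 0.691% to 3.22% in the other 3 samples. The Kupffer cell list was found in 201 of the 1829 alveolar macrophages of replicate 2, against 15.1% of its other cells. The classical monocyte list was found in 2.15% to 8.25% of alveolar macrophages of the 4 positive samples, against 31.1% to 42.5% of the other cells. T cell, NK cell, dendritic cell and fibroblast lists reached at most 1.87% of alveolar macrophages in any positive sample, and in positive replicate 4 the T cell genes Cd3e, Cd3d, Trac and Lck were at 0. The part of this RNA in the results below was not tested.

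Alveolar macrophages made up 43.4%, 77.1%, 35.7% and 13.7% of the kept cells in biotin-positive lung replicates 1 to 4, which is 1334, 1829, 434 and 93 cells. In biotin-negative lung they made up 0.181%, 0.834%, 0% and 0.0325% in replicates 1 to 4, which is 5, 21, 0 and 1 cells. All 4 positive samples lay above all 4 negative samples, and within the positive samples the share spanned a wide range, highest in replicate 2 and lowest in replicate 4. The 0 of 2223 cells in negative replicate 3 allows a share of up to 0.135%, by 3 counts of the total, and exact binomial 95% intervals were 75.3% to 78.8% for positive replicate 2 and 11.2% to 16.5% for positive replicate 4. Such intervals and limits cover counting error only.

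The mean share was 42.5% ± 26.3 in positive lung against 0.262% ± 0.389 in negative lung (SD, n = 4 each), a difference of 42.2 percentage points (two-sided exact permutation test, p = 0.0286, the smallest that 4 against 4 samples allow). With samples of the same number taken as pairs, all 4 pairs went this way, and the exact sign-flip permutation test gave p = 0.125, the smallest that 4 pairs allow. The shares are of cells that were sorted, loaded and kept, not of the whole lung. Leaving out members that carried at least 2 markers of another cell type lowered the difference to 22.5 points, and with the neutrophil and epithelial lists not counted for this it was 40.6. These members left the count but not the total of kept cells, so the shares could only fall. The exact permutation test gave p = 0.0571 without any 1 negative sample and p = 0.0286 without any 1 positive sample.

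In positive lung 209 cells carried exactly 2 of the 5 genes, just outside the rule, and 646 carried exactly 3, just inside it. A further 1431 cells carried 4 and 1613 carried all 5. In negative lung 679 cells carried exactly 1 gene, 40 carried exactly 2 and 8 carried exactly 3. Outside the lung the same rule was met by 77 of 37440 kept cells of bone, brain and liver (0.206%), of which 51 had a clear tag of their sample, and by 0 of 26186 cells of the IIA bone sample, which allows a share of up to 0.0115%.

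**Figure D1:**
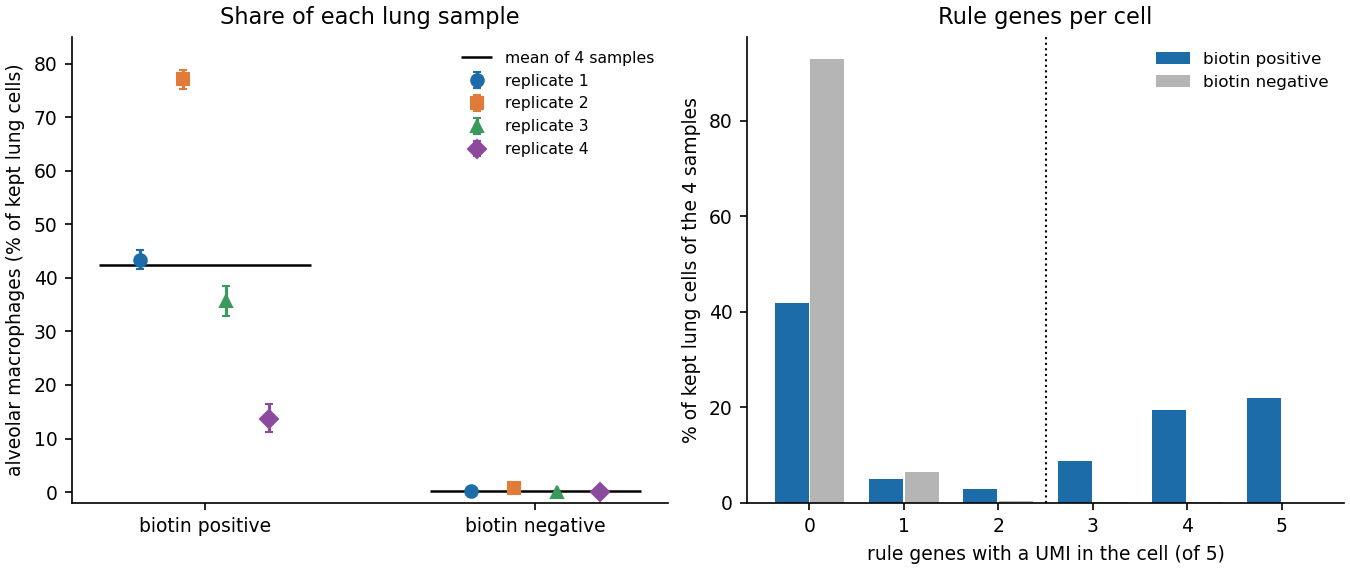
Left, alveolar macrophages as a percentage of kept cells in each lung sample (points, with exact binomial 95% intervals) and the mean of the 4 samples (line); right, percentage of kept lung cells by how many of the 5 rule genes had a UMI, with the rule's limit dotted. The 4 positive samples sit between 13.7% and 77.1% and the 4 negative samples at or below 0.834%.

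The rule genes were high in every positive sample. Levels are CPM, the UMIs of a gene in the summed cells scaled to a common library total, and 4 values given in a row are positive replicates 1 to 4 throughout. Plet1 (ENSMUSG00000032068) stood at 1636, 1304, 967 and 990.1 CPM in alveolar macrophages and at 84.3, 199, 13.6 and 17 CPM in the other cells of the same samples. Ear1 (ENSMUSG00000072601) stood at 1112, 1093, 2162 and 1556 CPM against 17, 48.7, 15.7 and 9.38 CPM. Both genes are part of the rule, and both were highest among the other cells of replicate 2, where the members were most numerous. Krt79 (ENSMUSG00000061397) stood at 473, 661, 988 and 598 CPM against 6.29, 21.9, 10.8 and 0.852 CPM, Fabp1 (ENSMUSG00000054422) at 413, 236, 720 and 582 CPM against 3.48, 3.49, 2.06 and 0 CPM, and Siglecf (ENSMUSG00000039013) at 150.4, 159.8, 131 and 152 CPM against 4.39, 6.43, 3.86 and 7.39 CPM. Plet1 and Ear1 were detected in 97.5% or more of the members of each positive sample, and Siglecf in 53.2% to 74.4%.

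The 20 genes with the highest fold over the other kept cells of positive lung were, in order, Ear1, Fabp1, Krt79, Ear2, Krt19, Acaa1b, Plet1, Cidec, Lpl, Marco, Abcg1, Il18, Siglecf, Ly75, Axl, Lpin1, Cyb561a3, Perp, Net1 and Ccnd2. They include genes of fat storage and lipid transport. Cidec, a protein of lipid droplets, stood at 248, 262, 267 and 240.2 CPM in the members and 9.19, 23.7, 4.12 and 1.14 CPM in the other cells. Lpl, the lipase that releases fatty acids from triglyceride particles, stood at 2337, 2193, 2886 and 2383 CPM against 246, 346, 55.9 and 44 CPM, and Abcg1, a cholesterol exporter, at 1092, 1500.3, 1240 and 1300.2 CPM against 72.4, 263, 60.2 and 64.2 CPM. In these 3 genes the members were above the other cells in every sample, and the other cells were highest in replicates 1 and 2. The scavenger receptor Marco stood at 357, 514, 1156 and 633 CPM, highest in replicate 3. The interleukin Il18 (549, 461, 464 and 615 CPM), the phosphatidylserine-bound receptor kinase Axl (420.1, 530.4, 526 and 504 CPM) and the epithelial keratin Krt19 (329, 165, 356 and 295 CPM) were also among them. These genes were ranked on the cells the rule selected, so no test is given.

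**Figure D2:**
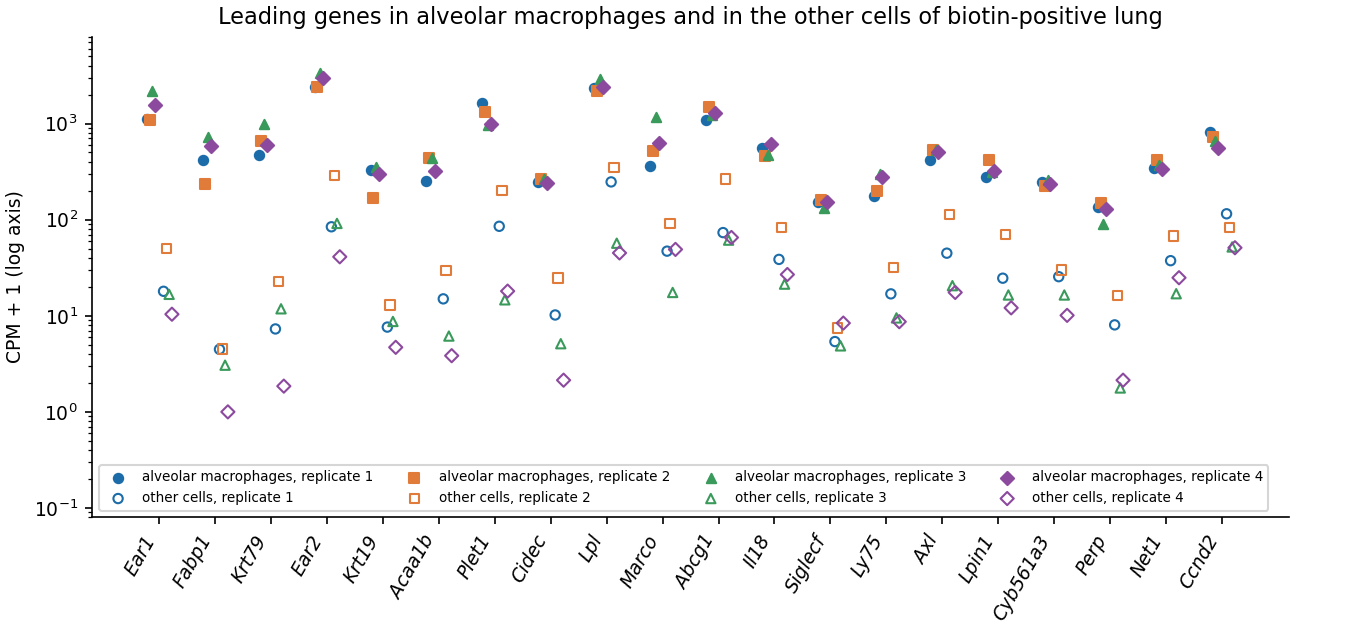
CPM plus 1 on a log axis of the 20 leading genes in alveolar macrophages (filled) and in the other kept cells (open) of the 4 biotin-positive lung samples, 1 marker shape per replicate. For each gene the 4 filled points sit above the 4 open points, and the open points of replicate 2 are mostly the highest.

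Ear1 and Ear2 lie on the same chromosome and are near copies of each other, and their promoters are shown because both genes lead these cells. The sequences are from RefSeq (GRCm38.p6), 5′ to 3′ on each gene's strand, the 250 bases before the gene's start: chr14:43819640-43819889 on the minus strand for Ear1 and chr14:44102404-44102653 on the plus strand for Ear2. Capitals mark the match to TTGNGNAA on the opposite strand, letters of the kind bound by C/EBP factors.
Ear1: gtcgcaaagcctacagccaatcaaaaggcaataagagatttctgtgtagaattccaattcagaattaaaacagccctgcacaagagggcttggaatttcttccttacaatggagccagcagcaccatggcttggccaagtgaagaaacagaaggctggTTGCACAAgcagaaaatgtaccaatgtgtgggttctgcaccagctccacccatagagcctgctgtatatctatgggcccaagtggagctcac
Ear2: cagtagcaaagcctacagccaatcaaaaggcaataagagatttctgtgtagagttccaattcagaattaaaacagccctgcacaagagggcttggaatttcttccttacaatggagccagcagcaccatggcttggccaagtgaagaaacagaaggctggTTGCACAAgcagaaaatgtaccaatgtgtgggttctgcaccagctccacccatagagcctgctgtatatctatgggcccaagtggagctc
Over 300 bases, which include 50 bases past the start, 294 of 303 aligned positions were identical (97.0%). The transcripts were identical at 690 of 719 aligned positions (96.0%), and their last 300 bases, nearest to where a 3′ library reads, at 296 of 300. Counts of Ear1 and Ear2 are therefore uncertain as to which of them a read came from. Ear2 stood at 2405, 2391, 3388 and 2974 CPM, with replicates 3 and 4 highest, as for Ear1.

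Of the 20 leading genes 15 had a promoter in the RefSeq table, with 18 promoters between them. On either strand TTGNGNAA was found in 7 of these 18 promoters, each of another gene (Ear1, Ear2, Plet1, Cidec, Marco, Siglecf and Ly75) and in 13.3% of all 32851 promoters of that length. The near copies Ear1 and Ear2 count as 2 of the 7. The AP-1 letters TGANTCA were found in 2 (Plet1 and Cidec) and in 7.81% of all promoters. The spaced direct repeat bound by PPARG with RXR was found in 1 (Fabp1) and in 0.381% of all, and the PU.1 letters GAGGAAGT in none of the 18 and in 3.20% of all. Such matches describe letters in these windows only.

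Some inflammatory and antigen presentation genes, named here after their values were seen, varied among the 4 positive samples. Il1b, the cytokine interleukin 1 beta, stood at 653, 276, 210.3 and 33.8 CPM, and Tnf, tumour necrosis factor, at 224, 90.3, 42.5 and 9.02 CPM. Both were highest in replicate 1 and lowest in replicate 4. The neutrophil-attracting chemokine Cxcl2 (2509.8, 1791, 1745 and 776 CPM) and the NF-kB inhibitor Nfkbia (1056, 803, 516 and 263 CPM) had the same sample at the top and the same at the bottom. The MHC class II genes had replicate 4 at the top: H2-Aa stood at 137, 140.1, 199 and 689 CPM, H2-Ab1 at 115, 93.2, 143 and 470.2 CPM, and Cd74, the chain that chaperones class II molecules, at 416, 371, 717 and 2111 CPM. Replicate 4 rests on 93 cells. In the other cells of the same samples Il1b stood at 6679.6, 1342, 5159 and 4118 CPM and H2-Aa at 1722, 722, 612 and 654 CPM, and the part of shared RNA in these levels was not tested.

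By a rule of spread over the 4 samples the 10 most variable genes were Saa3, Il1r2, Igkc, Tnf, Pf4, Il1b, Ighm, Plac8, Apoe and Gdpd3. Igkc and Ighm encode antibody chains of B cells. Igkc stood at 359.6, 13.5, 369 and 86.8 CPM in the members and 149.8, 19.9, 3426 and 6429 CPM in the other cells. Ighm stood at 38.5, 7.8, 138 and 44 CPM against 92.1, 18.9, 1402 and 2767 CPM. For both genes replicate 2 was lowest in the members and among the other cells alike. Saa3, an acute-phase protein, stood at 95.9, 47.2, 111 and 3.38 CPM in the members against 803, 395, 871 and 1075 CPM. Apoe, the lipid carrier apolipoprotein E, stood at 228, 557, 144 and 45.1 CPM against 1967, 10374, 1507 and 2398 CPM, highest in replicate 2 on both sides. Gdpd3, a phosphodiesterase of lysophospholipids, stood at 23.8, 53, 267 and 42.9 CPM against 15.6, 34.7, 277 and 18.2 CPM, highest in replicate 3 on both sides.

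Other genes, chosen here after their values had been seen, were nearly level over the 4 samples. The lineage factor Runx1 stood at 553, 594, 569 and 546 CPM, the inhibitory receptor Sirpa, which binds CD47 on other cells, at 628, 614, 634 and 659.7 CPM, and the growth factor Tgfb1 at 347, 343, 333 and 341 CPM. No sample stood out in any of the 3. Chil3, the chitinase-like protein, stood at 16681, 25347, 16139 and 16422 CPM with replicate 2 above the rest.

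**Figure D3:**
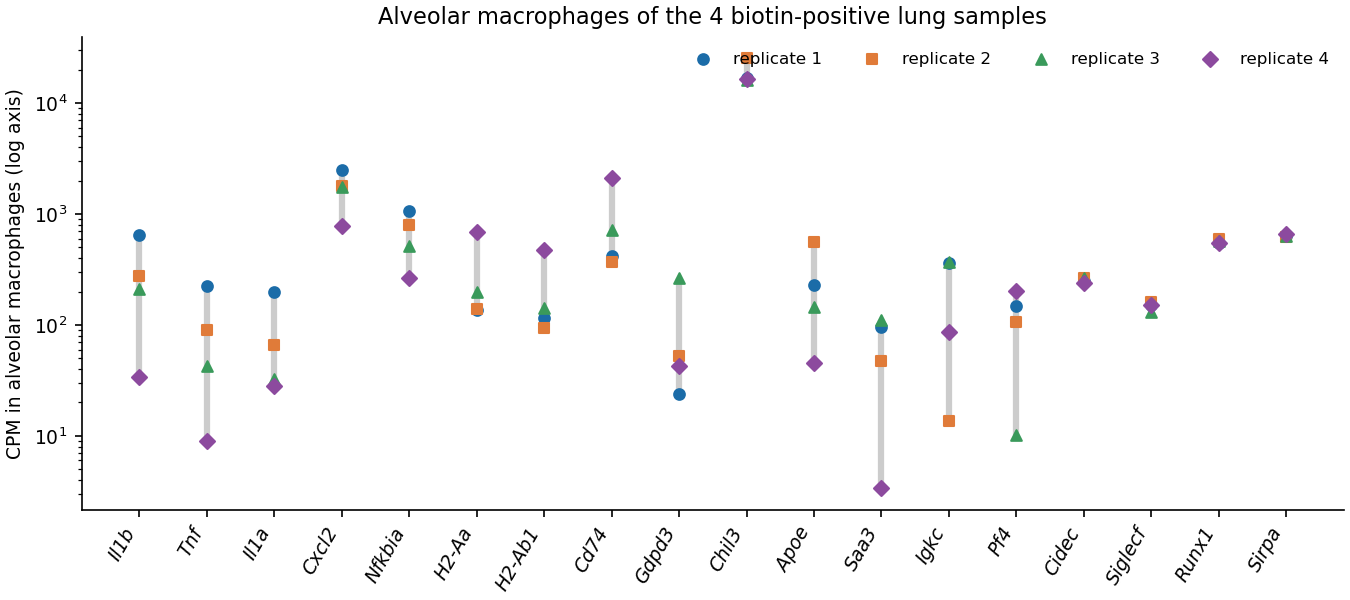
CPM on a log axis of 18 genes in the alveolar macrophages of each biotin-positive lung sample, with grey bars from the lowest to the highest sample. Il1b and Tnf are highest in replicate 1 and lowest in replicate 4, H2-Aa and Cd74 are highest in replicate 4, and the 4 points of Cidec, Siglecf, Runx1 and Sirpa lie close together.

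Some of the members were in cycle. A UMI of at least 3 of 8 genes of dividing cells (Mki67, Top2a, Cdk1, Birc5, Ube2c, Ccnb2, Cenpf and Tpx2) was found in 5.17%, 4.10%, 5.30% and 9.68% of the alveolar macrophages, which is 69, 75, 23 and 9 cells, a mean of 6.06% ± 2.47 (SD, n = 4). In the other kept cells it was found in 3.85%, 1.47%, 1.79% and 1.88%, at the lower depths given above. When each member was thinned to 2000 UMIs the share was 2.93%, 2.58%, 1.95% and 4.30%, and requiring 2 of the 8 genes gave a mean of 9.97%. The highest sample was replicate 4 in each case, from few cells, with an exact binomial 95% interval of 4.52% to 17.6%. In negative replicate 2 the count was 1 of 21 cells. No test was made, since depth differs between the cells compared.

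Members of positive and negative lung could be compared only against negative replicate 2, the single negative sample with at least 10 members (21 cells and 198096 UMIs). With 4 samples against 1, the spread between samples comes from the positive samples alone, and the negative sample is assumed to vary like them. Under that assumption edgeR's quasi-likelihood test found 0 of 10963 genes past a Benjamini-Hochberg adjusted p (false discovery rate, FDR) of 0.05, a background of 0.0%. An unadjusted p under 0.05 was reached by 754 genes, and DESeq2 called 14. In simulated data of this design the test found 23 of 100 genes changed by 4-fold and 0 of 100 changed by 2-fold, so a moderate difference was not detectable here. The simulation gave all genes the same spread between samples (dispersion 0.05), which the real genes need not share. The negative sample lay below all 4 positive samples in 35.9% of tested genes and above all 4 in 34.1%, so lying outside their range is no result for a gene.

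In this negative sample Chil3 stood at 21035 CPM, Ear2 at 1974 CPM, Lpl at 1696 CPM and Abcg1 at 1080.3 CPM. Fn1, the matrix protein fibronectin, stood at 1267 CPM against 387, 518, 151 and 170.3 CPM in the positive samples. Spp1, the secreted phosphoprotein osteopontin, stood at 75.7 CPM against 484, 131, 323 and 424 CPM. Both lay outside the range of the positive samples, which with 1 negative sample is a description only. Markers of other cells were also high in this sample: the classical monocyte list summed to 883 CPM in its 21 members against 70.3 to 147 CPM in the positive samples, and the interstitial macrophage list to 596 CPM against 32.9 to 165 CPM. At least 2 of 5 neutrophil markers were found in 18 of the 21. The part of this RNA in the Fn1 and Spp1 levels was not tested.

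Alveolar macrophages were next compared with 2 other kinds of biotin-positive macrophage: Kupffer-like cells of liver (at least 3 of Clec4f, Vsig4, Timd4, Cd5l and Folr2) and microglia-like cells of brain (at least 3 of Tmem119, P2ry12, Gpr34, Sall1 and Olfml3). These held 912 cells in 3 samples (72, 782 and 58, with none in replicate 4) and 393 cells in 4 samples (20, 24, 62 and 287). Counts were summed per sample and tested with edgeR. The value after ± of a log2 difference is a standard error worked back from that test, not an SD between samples. Tissue and kind of macrophage cannot be told apart in these comparisons. Both share the same alveolar macrophage samples and are given side by side, the Kupffer-like value first. Each kind was chosen by its own genes, which were left out of the tests, but genes that go with them were bound to differ.

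Against Kupffer-like cells 3089 of 10278 tested genes passed FDR 0.05 (30.1%), 1579 higher in alveolar macrophages (15.4%) and 1510 lower (14.7%). Against microglia-like cells 3690 of 8509 passed (43.4%), 1943 higher (22.8%) and 1747 lower (20.5%). In CPM, which carry no TMM scaling, all alveolar macrophage samples lay above all samples of the other kind in 18.6% and 19.7% of tested genes, and below them in 18.9% and 18.1%. The median log2 difference over all genes tested was 0.01 in both. These shares are the background for every gene list below. The filter on low counts admits a gene through either kind alone. A gene near the floor in the other kind could then pass only as higher in the kind that held it. No named gene that passed in one of these 2 comparisons turned direction there in an alternative setting; genes that did not pass were not followed. Where such settings (another tool, scaling or filter, other cell rules, the replicate block, or a sample left out) ended a call named below, the number of settings and the highest adjusted p among them are given.

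Against Kupffer-like cells the 12 highest genes were Wfdc10, Phlda3, Sema3e, Kcnn3, Gal, Olr1, Cpne5, Perp, B3gnt7, Htr2c, Atp6v0d2 and Ly75. Wfdc10 had no UMI in Kupffer-like cells and stood at 40.2, 31.1, 125 and 77.8 CPM, at least 93.4-fold higher by a floor of 3 counts over the group. Atp6v0d2, a subunit of the lysosomal proton pump, stood at 822, 808, 859.8 and 841 CPM against 3.29, 16.1 and 12.7 CPM in the 3 liver samples (log2 difference 5.99 ± 0.34, adjusted p = 5.47e-07). Olr1, a receptor for oxidised lipoproteins, stood at 428, 228, 425 and 232 CPM against 6.59, 2.71 and 12.7 CPM (log2 difference 6.48 ± 0.53, adjusted p = 4.61e-06). Ly75, an endocytic receptor also called DEC-205, differed by a log2 of 5.90 ± 0.43.

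The 12 lowest against Kupffer-like cells were Cxcl13, Chp2, Cd207, Fabp7, C6, Tspan15, Slc40a1, Epb41l3, Adamdec1, Tmem26, Ccdc148 and Paqr9. Slc40a1, the iron exporter ferroportin, stood at 3.99, 19.3, 7.19 and 2.26 CPM against 2678, 2174 and 2458 CPM (log2 difference -7.95 ± 0.55, adjusted p = 1.68e-06). Cxcl13, a chemokine that attracts B cells, stood at 0.325, 2.07, 0 and 0 CPM against 1924, 834 and 513 CPM (log2 difference -9.93 ± 0.73, adjusted p = 2.39e-06). C6, a complement component, stood at 0.0813, 6.82, 0 and 0 CPM against 465, 1084 and 988 CPM (log2 difference -8.23 ± 0.94, adjusted p = 5.34e-05). In Cxcl13 and C6 the highest alveolar macrophage sample was replicate 2, the replicate number with the most Kupffer-like cells and the most members with Clec4f. Leaving out a replicate 2 sample of either kind ended none of the 24 calls.

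Against microglia-like cells the 12 highest genes were Cidec, Lepr, Kcnn3, Ear6, P2ry14, Trim29, Plekhg1, Flvcr2, Mcam, Kazald1, Plcb1 and Wfdc10, and none of them had a UMI in any of the 393 microglia-like cells. By a floor of 3 counts over the group Cidec was at least 194-fold higher, Lepr, the leptin receptor, at least 133-fold (98.3, 214, 272 and 160.1 CPM), and Flvcr2, a transporter, at least 66.5-fold (89.5, 89.7, 78.8 and 62 CPM). The microglia-like sums are small, so these are lower bounds. The 12 lowest were Sall3, Nav3, Crybb1, Csmd3, Adamts1, Thrsp, Fcrls, Sparc, Slc2a5, Col27a1, Serpine2 and Tgfa. Sparc, a matrix-binding glycoprotein, stood at 3.33, 0.764, 0.685 and 1.13 CPM against 2921, 1779, 1404 and 1509 CPM (log2 difference -10.01 ± 0.52, adjusted p = 1.68e-08). Slc2a5, a fructose transporter, differed by a log2 of -9.69 ± 0.50. Sall3, Csmd3 and Thrsp had no UMI in the alveolar macrophages of positive lung, and Sall3 was at least 1342-fold lower there.

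**Figure D4:**
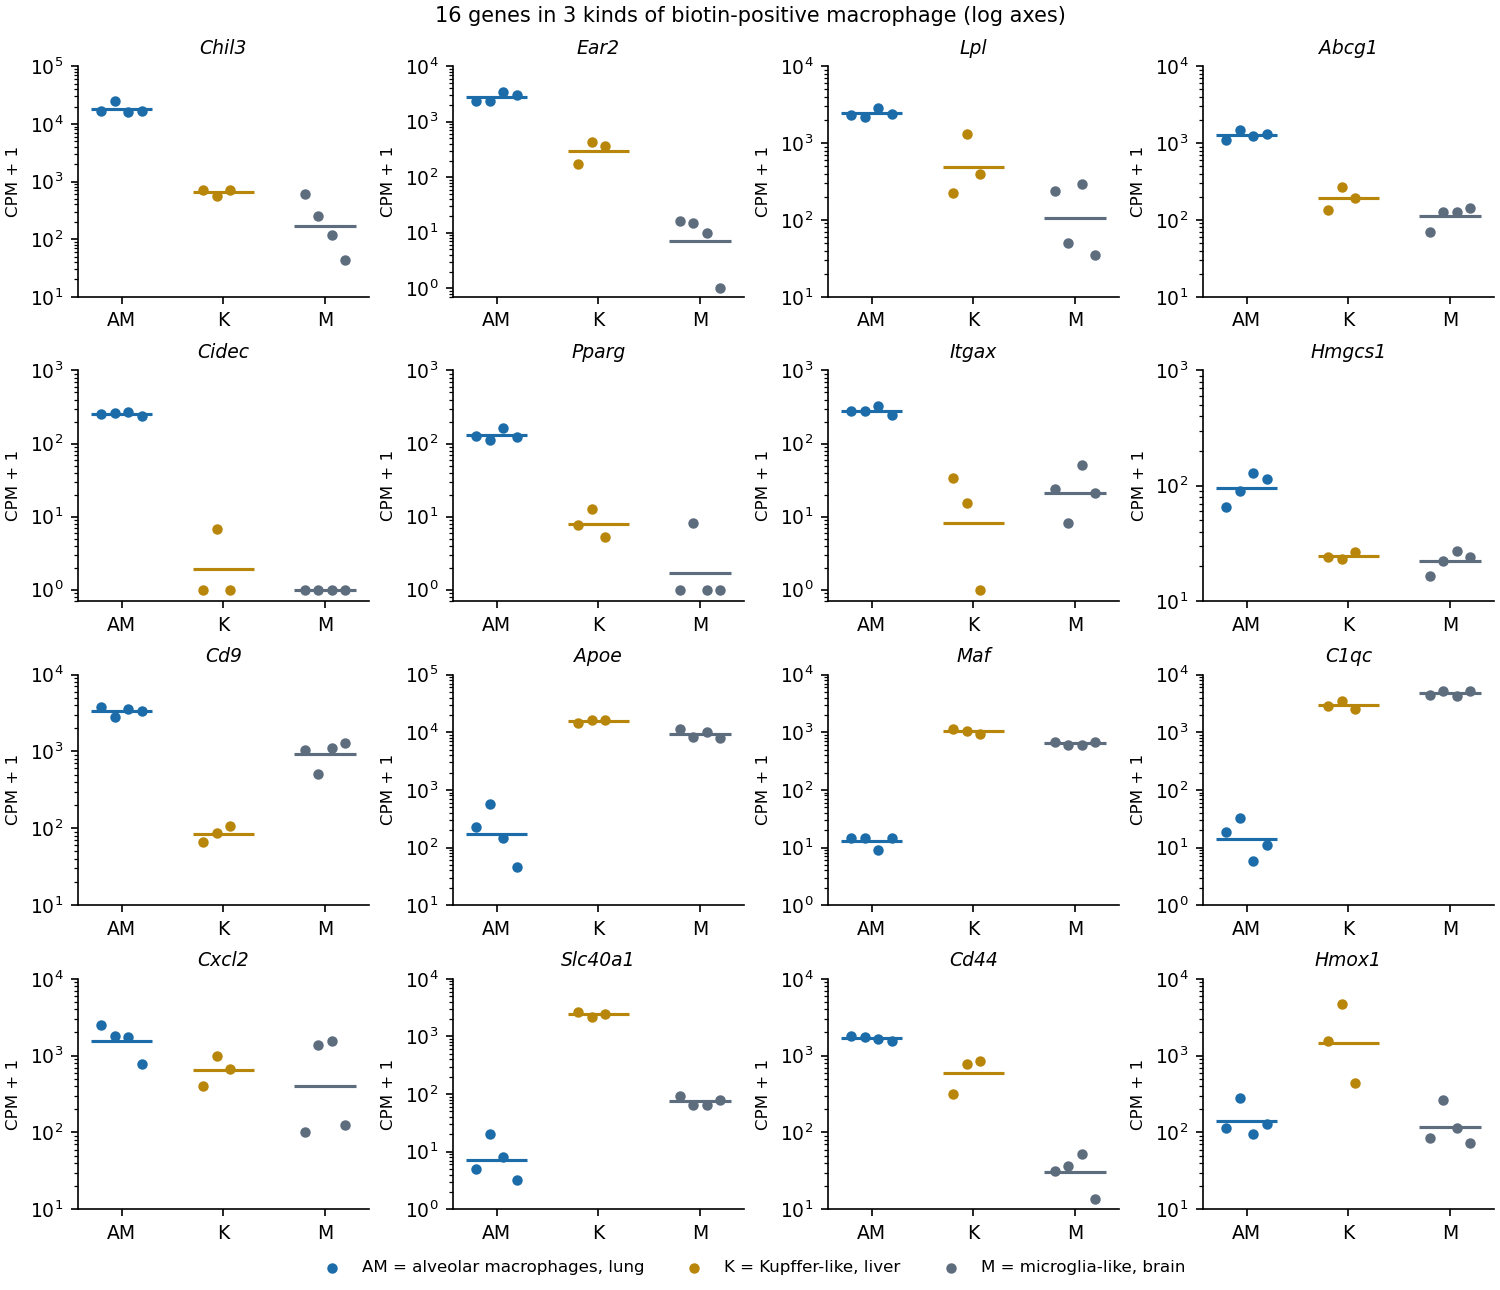
CPM plus 1 on log axes of 16 genes in 3 kinds of biotin-positive macrophage, 1 point per sample (3 for Kupffer-like cells, 4 for the others) with the geometric mean as a line. Chil3, Ear2, Lpl, Abcg1, Cidec, Pparg, Itgax, Hmgcs1, Cd9 and Cd44 are highest in alveolar macrophages in every sample, and Apoe, Maf, C1qc and Slc40a1 are lowest there.

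The genes by which alveolar macrophages are known were mostly higher in them. Of the surface and identity list 15 of 20 were higher and 2 lower against Kupffer-like cells and 17 of 20 were higher and 1 lower against microglia-like cells, with median log2 differences of 4.43 and 6.69. The list was chosen for these cells, so its direction is no independent evidence. Chil3 was 18647 ± 4472 CPM in alveolar macrophages (SD, n = 4), 663 ± 90.3 CPM in Kupffer-like cells (SD, n = 3) and 254 ± 248 CPM in microglia-like cells (SD, n = 4), with log2 differences of 4.89 ± 0.27 and 6.45 ± 0.66. The tetraspanin Cd9 stood at 3798, 2819, 3529 and 3395 CPM, with log2 differences of 5.38 ± 0.28 and 1.82 ± 0.26. Lyz2, lysozyme, was higher by log2 differences of 1.90 ± 0.33 and 2.87 ± 0.31. The exceptions were Adgre1 and Itgam, lower than in Kupffer-like cells, and Itgam, lower than in microglia-like cells. Itgam encodes CD11b, which alveolar macrophages are known to have little of, and stood at 36.3, 24, 36 and 20.3 CPM. The exceptions were named after their values had been seen, as was Epcam, an epithelial adhesion protein at 123, 74.5, 67.1 and 39.5 CPM. Epcam had a UMI in 48.9%, 36.7%, 32.7% and 26.9% of the alveolar macrophages against 4.83%, 4.78%, 2.81% and 1.88% of the other cells of positive lung.

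Of the regulators 7 of 21 were higher and 9 lower against Kupffer-like cells and 9 of 20 were higher and 4 lower against microglia-like cells. Of the 4 with the highest level, Runx1 was higher in both comparisons (2.58 ± 0.19 and 0.43 ± 0.15). Cebpb, a factor of myeloid maturation (2313, 2380.2, 2340.3 and 1404 CPM), was higher than in microglia-like cells (1.44 ± 0.25) and did not pass against Kupffer-like cells (0.80 ± 0.35). Spi1, which encodes PU.1, passed in neither (-0.51 ± 0.20 and 0.25 ± 0.15), and Zeb2 was lower than in Kupffer-like cells (-0.92 ± 0.26). The following regulators were named after their values had been seen. Pparg stood at 127, 109.6, 159.6 and 121 CPM and was higher in both comparisons (3.70 ± 0.29 and 8.13 ± 0.57), as was Bhlhe40, a factor of self-renewal in these cells (2.08 ± 0.51 and 5.88 ± 0.56). Maf, a factor of tissue macrophages, stood at 13.4, 13.7, 8.22 and 13.5 CPM and was lower in both (-6.33 ± 0.25 and -5.64 ± 0.21). Calls lost in some settings were Runx1 against microglia-like cells (5 of 17 settings, adjusted p = 0.0775 without TMM scaling) and Zeb2 against Kupffer-like cells (3 of 16 settings, adjusted p = 0.114 without Kupffer-like replicate 3).

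Genes of lipid handling were more often higher than lower. Of 26 genes of lipid and surfactant handling 13 were higher and 8 lower against Kupffer-like cells, and 19 higher and 4 lower against microglia-like cells. Median log2 differences were 0.77 and 2.68. Lpl was 2449.5 ± 302 CPM in alveolar macrophages against 642 ± 589 and 155 ± 132 CPM, with log2 differences of 1.94 ± 0.50 and 4.09 ± 0.56. Abcg1 differed by 2.70 ± 0.27 and 3.46 ± 0.22. Plin2, which coats lipid droplets, stood at 1144, 1081, 1550 and 1307 CPM and was higher in both comparisons (2.16 ± 0.37 and 4.02 ± 0.31). Lgals3, a galectin of phagocytes, was higher by 1.04 ± 0.22 and 3.98 ± 0.42. Apoe went the other way, at 244 ± 222 CPM against 15659.9 ± 975 and 9438 ± 1595 CPM, with log2 differences of -5.94 ± 0.66 and -5.21 ± 0.58. Abca1, the exporter that loads cholesterol onto apolipoproteins, and Scd2, a fatty acid desaturase, were also lower in both comparisons and were named after their values had been seen. Some settings ended the call of Lpl against Kupffer-like cells (1 of 16 settings, adjusted p = 0.0687 without Kupffer-like replicate 3).

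Cholesterol synthesis had no gene that was lower. In it 9 of 16 were higher and 0 lower against Kupffer-like cells and 11 of 14 were higher and 0 lower against microglia-like cells, and the median log2 differences were 1.61 and 1.84. Hmgcs1, an early enzyme of the pathway, stood at 64.2, 88.4, 127 and 114 CPM against 23.1, 22.3 and 25.4 CPM in Kupffer-like and 15.4, 21.3, 26.1 and 23 CPM in microglia-like cells, and no sample of another kind reached the lowest alveolar one (2.12 ± 0.29 and 2.13 ± 0.29). Cyp51, which demethylates lanosterol, was higher in both, at 31.3, 31.5, 62 and 42.9 CPM against means of 10.2 and 12 CPM, and Msmo1, a sterol oxidase, by 1.52 ± 0.36 and 1.16 ± 0.34. Insig1, which holds the pathway's regulator in the endoplasmic reticulum, was higher than in microglia-like cells (1.71 ± 0.35) and did not pass against Kupffer-like cells (0.25 ± 0.27). The calls not held in every setting were Msmo1 against Kupffer-like cells (1 of 16 settings, adjusted p = 0.0822 without Kupffer-like replicate 2) and Msmo1 against microglia-like cells (1 of 17 settings, adjusted p = 0.136 without microglia-like replicate 4).

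Uptake receptors split by kind. Of the scavenger and phagocytic receptors 3 of 18 were higher and 8 lower against Kupffer-like cells and 9 of 18 were higher and 6 lower against microglia-like cells. Marco stood at 665 ± 346 CPM against 9.01 ± 13.4 CPM in microglia-like cells, where it was higher by 8.08 ± 0.82, and against 1892 ± 1775 CPM in Kupffer-like cells, where the difference did not pass (-1.49 ± 0.55). Axl was higher than in microglia-like cells (3.95 ± 0.29) and its difference from Kupffer-like cells did not pass (0.46 ± 0.24). The mannose receptor Mrc1 stood at 1261, 1797, 1428 and 1477 CPM and was higher than in microglia-like cells (3.77 ± 0.55). Fcer1g, the signalling chain of Fc receptors, was lower than in microglia-like cells (-0.49 ± 0.16). In the list of efferocytosis, the uptake of dying cells, 1 of 10 were higher and 5 lower and 2 of 10 were higher and 5 lower. Its receptor kinase Mertk stood at 326, 366, 388 and 323 CPM and its bridging ligand Pros1 at 134, 100, 79.1 and 104 CPM, and neither passed in either comparison. Settings ended the call of Fcer1g against microglia-like cells (7 of 17 settings, adjusted p = 0.287 with no filter on low counts).

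Complement genes were mostly lower. Of them 2 of 11 were higher and 9 lower against Kupffer-like cells and 3 of 10 were higher and 6 lower against microglia-like cells, with median log2 differences of -5.33 and -3.80. C1qc, a chain of the C1q recognition molecule named after its values had been seen, stood at 17.3, 31, 4.8 and 10.1 CPM in alveolar macrophages against 2944 ± 473 and 4742 ± 473 CPM (log2 difference -7.36 ± 0.52, adjusted p = 1.87e-06; then -8.04 ± 0.48). C3, the central component, went the other way in both comparisons, at 79.6, 63.6, 171 and 122 CPM and higher by 1.31 ± 0.38 and 3.30 ± 0.47. Cfp, properdin, stood at 90.1, 98.4, 54.1 and 80.1 CPM, lower than in Kupffer-like cells (-3.94 ± 0.26) and higher than in microglia-like cells (3.21 ± 0.37). The smaller difference was lost in some settings, as C3 against Kupffer-like cells (1 of 16 settings, adjusted p = 0.192 without Kupffer-like replicate 2). Without Kupffer-like replicate 2 or 3 the count of complement genes higher than in Kupffer-like cells was 1.

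Antigen presentation genes are read beside the 30.1% and 43.4% of all tested genes that passed in these comparisons. Of the MHC class II list 1 of 10 were higher and 2 lower against Kupffer-like cells and 0 of 8 were higher and 1 lower against microglia-like cells. Cd74 stood at 904 ± 819 CPM against 1788 ± 371 and 591 ± 383 CPM, with overlap in both (-0.91 ± 0.52 and 0.75 ± 0.57, neither passing). Cd86, a costimulatory ligand, stood at 33.1, 22.9, 8.91 and 15.8 CPM and was lower in both comparisons (-2.06 ± 0.39 and -3.50 ± 0.32). Cd40 was at 1.22, 0.764, 0.343 and 1.13 CPM, lower than in Kupffer-like cells (-3.90 ± 0.48). H2-DMa, which helps load class II molecules, was higher than in Kupffer-like cells (0.92 ± 0.31). Of the MHC class I list 0 of 9 were higher and 1 lower against Kupffer-like cells and 3 of 8 were higher and 0 lower against microglia-like cells. Nlrc5, an activator of class I genes, was the gene lower than in Kupffer-like cells (-1.38 ± 0.42). It had a result in 12 of the 16 alternative settings, and the filter on low counts can admit such a gene through the Kupffer-like cells alone. Settings that ended a call were found for Cd86 against Kupffer-like cells (1 of 16 settings, adjusted p = 0.0598 without Kupffer-like replicate 2), H2-DMa against Kupffer-like cells (5 of 16 settings, adjusted p = 0.226 without Kupffer-like replicate 2) and Nlrc5 against Kupffer-like cells (5 of 12 settings, adjusted p = 0.108 in DESeq2). Class II genes lower than in Kupffer-like cells were 0 without Kupffer-like replicate 2, and 1 and 6 without alveolar replicates 2 and 4.

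Of the chemokine genes 1 was higher and 3 lower of 17 against Kupffer-like cells, and 3 were higher and 6 lower of 14 against microglia-like cells. Cxcl2 stood at 2509.8, 1791, 1745 and 776 CPM against 402, 986 and 669.7 CPM in Kupffer-like cells (log2 difference 1.36 ± 0.40, adjusted p = 0.0248). Cxcl16, the ligand of Cxcr6 on T cells, stood at 14.6, 13, 10.3 and 15.8 CPM and was lower in both comparisons (-3.98 ± 0.21 and -2.66 ± 0.27). Ccl6 was high in alveolar macrophages at 3276, 3954, 4487 and 3722 CPM and higher than in microglia-like cells (3.63 ± 0.34). Ccl3 stood at 167, 118, 117 and 97 CPM and was lower than in microglia-like cells (-4.36 ± 0.47). The call of Cxcl2 against Kupffer-like cells (2 of 16 settings, adjusted p = 0.0917 without Kupffer-like replicate 3) did not hold in all settings. The chemokine genes higher than in microglia-like cells were 6, 6 and 5 of 16 without microglia-like replicates 1, 2 and 3. Those higher than in Kupffer-like cells were 0 without Kupffer-like replicate 1 and 2 without alveolar replicate 2. The lower ones were 2 and 4 without alveolar replicates 2 and 1.

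Among cytokines 5 of 15 were higher and 2 lower against Kupffer-like cells and 3 of 12 were higher and 4 lower against microglia-like cells. Il18 was higher in both (2.33 ± 0.27 and 3.78 ± 0.25), as was Tgfb1 (0.68 ± 0.17 and 0.47 ± 0.17). Il1b did not pass against either kind (-0.50 ± 0.64 and 0.45 ± 0.75). Il1rn, the antagonist of the interleukin 1 receptor, stood at 212, 147, 170.2 and 150 CPM and was higher in both (1.64 ± 0.35 and 5.47 ± 0.52). In the NF-kB feedback list 0 of 12 were higher and 1 lower and 2 of 12 were higher and 5 lower. Bcl3 was its gene lower than in Kupffer-like cells (-1.27 ± 0.41). Interferon response genes were lower than in Kupffer-like cells in 10 of 12, with a median log2 difference of -3.65, beside 14.7% of all tested genes. Those scarce in alveolar macrophages could enter the test through the Kupffer-like cells alone, and then only as lower. Bst2, the virus-tethering protein, stood at 74.4, 54.5, 55.2 and 72.2 CPM and was lower in both comparisons (-2.06 ± 0.21 and -1.24 ± 0.20). Not held in all settings were Tgfb1 against microglia-like cells (3 of 17 settings, adjusted p = 0.0662 without microglia-like replicate 4) and Bcl3 against Kupffer-like cells (4 of 16 settings, adjusted p = 0.689 without Kupffer-like replicate 2). Without Kupffer-like replicate 2, cytokine genes higher and lower than in Kupffer-like cells were 3 and 0 of 13, and without alveolar replicate 2 the lower count was 1.

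Of the checkpoint and suppressive genes 8 of 14 were higher and 4 lower against Kupffer-like cells and 7 of 14 were higher and 5 lower against microglia-like cells. Sirpa was higher than in Kupffer-like cells (0.81 ± 0.18) and did not pass against microglia-like cells (0.33 ± 0.16). Gpnmb, a glycoprotein of lipid-laden macrophages, stood at 204, 237, 268 and 195 CPM, higher in both comparisons (3.46 ± 0.31 and 3.53 ± 0.35). Pdcd1lg2, the PD-1 ligand PD-L2, was named after its values had been seen and was higher in both, by 3.03 ± 0.46 and 4.05 ± 0.57. The genes of this list lower than in Kupffer-like cells were 2 without Kupffer-like replicate 2 or alveolar replicate 3 or 4.

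Adhesion genes went both ways, with Itgax, Itgb2, Cdh1, Cd44 and Cd9 higher and Itgam, Itgav, Itgb5 and Cd81 lower in both comparisons. Itgax, which encodes CD11c, stood at 277, 277, 326 and 242 CPM against 32.9, 14.4 and 0 CPM in Kupffer-like and 23.1, 7.09, 49.3 and 20 CPM in microglia-like cells, with no overlap (4.22 ± 0.42 and 3.49 ± 0.32). Cd44, the hyaluronan receptor, stood at 1787, 1765, 1633 and 1557 CPM and was higher in both (1.45 ± 0.31 and 5.98 ± 0.37). Itgam, which encodes CD11b, stood at 36.3, 24, 36 and 20.3 CPM and was lower in both (-3.19 ± 0.28 and -3.91 ± 0.27). Of the adhesion list 5 of 16 were higher and 9 lower and 8 of 16 were higher and 5 lower, and of the matrix and protease list 4 of 13 were higher and 5 lower and 7 of 10 were higher and 1 lower. The lower count against Kupffer-like cells was 3 without alveolar replicate 1 or Kupffer-like replicate 3, and that against microglia-like cells 2 or 3 without any 1 sample other than microglia-like replicate 4. Among the genes higher than in microglia-like cells was Mmp8, a neutrophil collagenase, and of the neutrophil markers Retnlg, Cxcr2 and Mmp8 were higher there and Csf3r lower, of 4 tested. The part of neutrophil RNA was not tested. Leaving out members with markers of other cells ended the call of Mmp8 against microglia-like cells (1 of 17 settings, adjusted p = 0.468 without doublet-like members). Mmp8 is itself among the neutrophil markers used for this, so that loss was partly built in and does not show where the RNA came from. Fn1 was higher than in Kupffer-like and microglia-like cells (1.65 ± 0.56 and 3.13 ± 0.83). In some settings the call ended for Itgb2 against Kupffer-like cells (5 of 16 settings, adjusted p = 0.114 without Kupffer-like replicate 3), for Fn1 against Kupffer-like cells (7 of 16 settings, adjusted p = 0.215 without Kupffer-like replicate 2) and for Fn1 against microglia-like cells (1 of 17 settings, adjusted p = 0.0504 in DESeq2).

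Oxidative phosphorylation genes were higher in 10 of 15 against Kupffer-like cells and in 12 of 15 against microglia-like cells, with 0 lower in both. Cox4i1, a subunit of cytochrome oxidase, stood at 1344, 1423, 1404 and 1407 CPM and was higher in both comparisons (0.92 ± 0.18 and 0.87 ± 0.15). Of the glycolysis and hypoxia genes 3 of 15 were higher and 3 lower against Kupffer-like cells and 4 of 14 were higher and 3 lower against microglia-like cells. Without Kupffer-like replicate 2 0 of 15 were lower than in Kupffer-like cells. Pkm, pyruvate kinase, stood at 235, 221, 169 and 182 CPM and passed in neither (-0.67 ± 0.24 and 0.33 ± 0.20). Of the iron genes 1 of 10 were higher and 6 lower against Kupffer-like cells and 3 of 9 were higher and 2 lower against microglia-like cells. Fth1, the heavy chain of the iron store ferritin, stood at 16288, 20614, 14813 and 15518 CPM and was higher in both (1.42 ± 0.23 and 1.40 ± 0.20). Hmox1, which breaks down haem, stood at 115, 280, 93.9 and 129.7 CPM against 1542, 4762 and 441 CPM in Kupffer-like cells (-3.84 ± 0.66), and its difference from microglia-like cells did not pass (0.43 ± 0.41).

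Of the lysosomal genes 4 of 17 were higher and 3 lower against Kupffer-like cells, beside 15.4% and 14.7% of all tested genes. Against microglia-like cells 5 of 17 were higher and 7 lower, beside 22.8% and 20.5% of all. The protease gene Ctsd stood at 3807, 5417, 6500.2 and 5758 CPM, higher than in Kupffer-like cells (1.61 ± 0.24), while Ctsb stood at 893, 966, 1013 and 937 CPM and was lower in both comparisons (-2.59 ± 0.28 and -0.89 ± 0.15). Cell cycle genes were higher in 8 of 16 against Kupffer-like and 5 of 15 against microglia-like cells, with 0 lower in both. These counts rest on single samples: they were 2 of 16 without Kupffer-like replicate 2 and 0 of 14 without microglia-like replicate 4, where 10.8% and 17.6% of all tested genes were higher. Without microglia-like replicates 1 and 2 in turn the latter count was 9 and 3 of 16, and without alveolar replicate 2 it was 3 of 13. Stmn1, a microtubule regulator of dividing cells, stood at 129.8, 112, 81.5 and 272 CPM and was higher than in Kupffer-like cells (2.79 ± 0.71). Genes of dissociation stress were higher in 1 of 14 against Kupffer-like cells (Btg2) and lower in 11 of 14 against microglia-like cells. Fos, an immediate early gene, stood at 679, 1976, 1571 and 828 CPM in alveolar macrophages and 1025, 3813, 5481 and 5748 CPM in microglia-like cells (-1.65 ± 0.46). Calls ended in some settings for Stmn1 against Kupffer-like cells (1 of 16 settings, adjusted p = 0.109 without Kupffer-like replicate 2) and Btg2 against Kupffer-like cells (4 of 16 settings, adjusted p = 0.117 without Kupffer-like replicate 3). Without alveolar replicate 1 the stress genes lower than in Kupffer-like cells were 2 of 14.

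**Figure D5:**
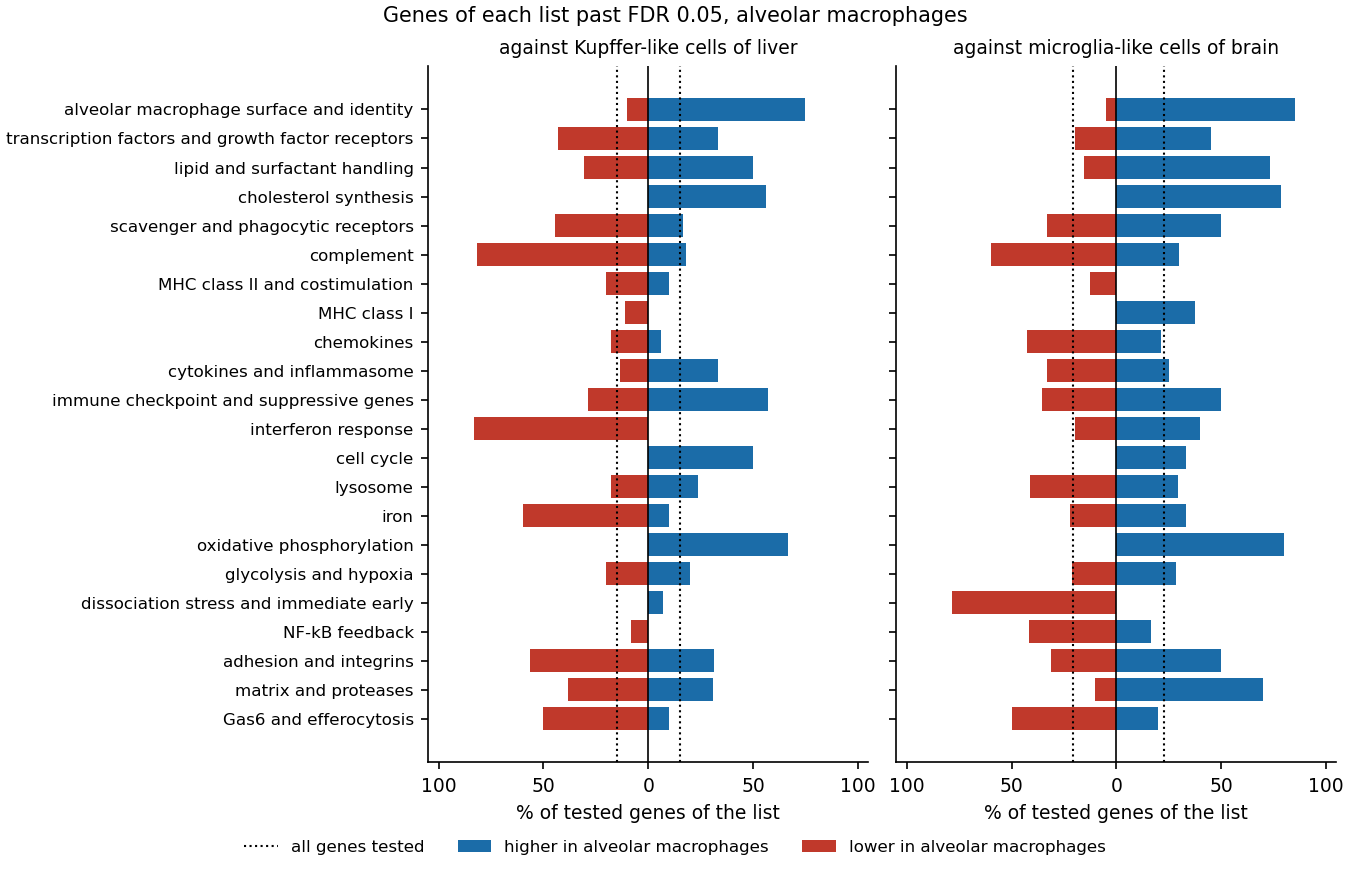
Percentage of the tested genes of each of 22 lists past FDR 0.05, higher (right, blue) or lower (left, red) in alveolar macrophages, against Kupffer-like cells and microglia-like cells, with the share over all genes tested dotted. In both panels cholesterol synthesis and oxidative phosphorylation genes reach past the dotted line to the right and have no bar to the left, the cell cycle bars rest on single samples, and interferon response and complement genes reach furthest to the left against Kupffer-like cells. Genes scarce in alveolar macrophages could enter through the other kind alone, and then only as lower.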

How the data were processed

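The authors' deposited matrices hold counts of UMIs by gene and barcode, written by cellranger 6.1.2 (intracardiac samples, CellPlex tags, 3′ libraries) and 7.1.0 (the IIA bone sample), per the file headers; mm10, Cell Ranger and Seurat are named in the submitters' processing notes. Deposited tag counts gave each cell's sample tag. Cells were filtered as stated above, no doublets were removed, and counts of at least 10 cells per sample and kind were summed and tested with edgeR 4.0.16 (quasi-likelihood, TMM scaling, low genes filtered, Benjamini-Hochberg adjustment), checked on simulated data. DESeq2 1.42.0 was an alternative. Genes were named as the rule genes, 20 leading genes, 10 most variable genes, the 12 largest differences per direction that passed, with at least 50 CPM in the higher kind and no overlap, and per list the 4 highest genes plus any that passed where at most 4 did. Mitochondrial, ribosomal and unnamed predicted genes were not named. Some genes and a planned comparison within the lung are not reported here. Members and lists were chosen with earlier results of these data known. Same-numbered samples shared no barcodes, as samples of a pool would. Deviations of same-numbered samples correlated at 0.06, 0.20 and 0.12 (alveolar and Kupffer-like, replicates 1 to 3), against at most 0.03 between different numbers. For alveolar and microglia-like samples they correlated at 0.02, 0.14, 0.10 and 0.08 (replicates 1 to 4), against at most 0.07. The main tests carry no replicate block, which was run as an alternative.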

Additional observations from a re-analysis of the deposited data

Results flagged for a closer look

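In the alveolar macrophages of positive lung, 158 sets of 4 sample values were searched for a sample set apart from the other 3 by Dixon's test, and 19 were found, where chance alone gives about 1 in 20 sets. That rate does not hold here for genes with UMIs in 1 sample, which stand apart by construction, or for genes picked for their spread. Nav3 rests on 1 UMI, Chp2 on 3, Tgfa on 4, Tmem26 on 10, Adamdec1 on 16 and Cd207 on 19, so a 0 in a shallower sample does not show a lower level. Replicate 2 holds 18331894 UMIs of these cells and replicate 4 holds 886806. Some genes high in Kupffer-like cells had their highest value in replicate 2, with Adamdec1 at 0.873 CPM against 0 in each of the others, C6 at 6.82 CPM against 0 to 0.0813, Cd207 at 1.04 CPM against 0 in each of the others, Chp2 at 0.164 CPM against 0 in each of the others, Cxcl13 at 2.07 CPM against 0 to 0.325, Paqr9 at 1.04 CPM against 0 to 0.163 and Tmem26 at 0.491 CPM against 0 to 0.0813. Replicate 2 was also set apart in Chil3 at 25347 CPM against 16139 to 16681, Mcam at 117 CPM against 52.4 to 62.7 and Nav3 at 0.0545 CPM against 0 in each of the others. Replicate 4, with 93 cells, was set apart in Blvrb at 101 CPM against 79.5 to 82.2, Cebpb at 1404 CPM against 2313 to 2380, H2-Aa at 689 CPM against 137 to 199 and H2-Ab1 at 470 CPM against 93.2 to 143. Replicate 3 stood above the others in Gdpd3 at 267 CPM against 23.8 to 53, Kcnn3 at 136 CPM against 86.3 to 88 and Msmo1 at 71.6 CPM against 33.4 to 37.2. Replicate 1 stood above in Sparc at 3.33 CPM against 0.685 to 1.13 and Tgfa at 0.325 CPM against 0 in each of the others.

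Outside the lung 0.206% of the kept cells of bone, brain and liver met the rule, organs not known to hold alveolar macrophages. The highest counts were 17 cells in positive liver replicate 1 and 12 in positive bone replicate 2.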

How the results depend on the processing

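The share difference of 42.2 points stayed above 0 in every setting run, from 30.7 to 51.8 points with 1 sample left out. Without 1 negative sample it was 42.1 to 42.4 points, with an exact permutation p of 0.0571 each time. Without 1 positive sample that p was 0.0286. With the replicate block (an exact permutation test by sign flips within 4 pairs) it was 42.2 points with p = 0.125, again the smallest possible. Cell numbers tested in edgeR gave a log2 of 7.32, and of 8.03 with the block. Thinned cells gave 31.1 points and 4 of 5 rule genes 34.7.

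The 0 calls between positive and negative members became 14 in DESeq2, 12 with no filter on low counts, 3 with at least 3 cells per sample, and 0 to 4 with 1 positive sample left out, and the cause was not tested. Leaving out doublet-like members, the replicate block and leaving out the negative sample could not be fitted, since fewer than 10 negative cells, no residual degrees of freedom or no negative sample remained. The cycling share of 6.06% became 9.97% with 2 of 8 genes and 2.94% in thinned cells, both by construction, and 4.86% to 6.72% with 1 sample left out.

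Calls against Kupffer-like and microglia-like cells ranged from 2083 to 3194 and from 2660 to 3985 with 1 sample left out, and were 2959 and 3303 with the replicate block. With no filter on low counts they were 3678 and 4968. None of the 24 genes of largest difference in each comparison lost its call, and no named gene that passed in either of these comparisons turned direction there. The setting that uses only cells with a clear tag was chosen after seeing the data. Kupffer-like and microglia-like sums rest on few cells (20 and 24 in microglia-like replicates 1 and 2), which limits what low genes can show.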
